A study of Mus musculus with 18 samples.

Results

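Expression of the epidermal growth factor (EGF) receptor family and its ligands was examined in mutant and non-mutant epidermal stem cells and keratinocytes of a mouse model of psoriasis-like disease. The 10 genes were taken by symbol out of the 23951 genes of the table and are 6 ligands (Areg, Epgn, Ereg, Btc, Tgfa and Hbegf), 3 receptors (Egfr, Erbb2 and Erbb3) and the receptor inhibitor Errfi1. EGF family ligands are made as precursors in the cell membrane, are cut off by ADAM proteases and bind EGFR on the same or on neighboring cells, and the receptor then pairs with itself, ERBB2 or ERBB3 and signals through RAS and the MAP kinases. ERRFI1, also known as MIG6, binds the kinase domain of the active receptors and shuts them down. In the epidermis, EGFR signaling keeps basal keratinocytes proliferating and slows their differentiation.

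RNA-seq was performed on 18 libraries in 6 groups, with 3 mice per group. DKO* mice carried floxed alleles of JunB and c-Jun (JunB f/f c-Jun f/f), the tamoxifen-inducible K5-Cre-ERT transgene, driven by the keratin 5 promoter of basal keratinocytes, and the mT/mG reporter, which switches a cell from Tomato to GFP when Cre recombines it. Control (Co) mice carried the same K5 Cre and mT/mG transgenes but were wild-type or heterozygous for the floxed JunB and c-Jun alleles, so that control cells may lack 1 copy of either gene. All mice were on a mixed background, of both sexes, and 8-week-old when they received 4 daily injections of 2 mg tamoxifen. Ear epidermis was taken at day 7, a day that the sample labels state for the DKO* libraries. Cells with high CD49f were sorted by CD34 into stem cells of the hair follicle bulge (HF-SCs, positive) and basal keratinocytes (b-KCs, negative), and in DKO* mice also into mutant GFP and non-mutant Tomato (Tom) fractions. Control HF-SCs and b-KCs came from mice 810, 825 and 828, and all 4 DKO* populations came from mice 814, 815 and 817.

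Levels are given in FPKM, the number of sequenced fragments scaled to transcript length and to the mapped reads of the library, whose steps at low values implied a depth of 16530000 to 26285000 reads per library. These depths, and reads and floors derived from them, include any scaling between libraries that the deposited values may hold. The deleted genes followed the labels in part. Jun was at 835 to 1086 FPKM in control HF-SCs and 876 to 1000 FPKM in control b-KCs, at 29.6 to 88.4 FPKM in the GFP fractions and at 163 to 614 FPKM in the Tom fractions, so that Tom libraries also lay below control. Junb was at 436 to 463 FPKM in control HF-SCs and 737 to 772 FPKM in control b-KCs, at 37.2 to 77.5 FPKM in the GFP fractions and at 208 to 402 FPKM in the Tom fractions. Against control, both genes were called lower in both GFP fractions and in Tom b-KCs, and in Tom HF-SCs Jun was (limma adjusted p = 0.015) and Junb was not (log2 change -0.56, adjusted p = 0.15). Cd34 was at 161 to 889 FPKM in HF-SC libraries and at most at 2.53 FPKM in b-KC libraries. HF-SC Tom libraries also held endothelial transcripts: the summed level of 10 endothelial genes was 486 to 1568 FPKM there, against 59.3 to 97.7 in HF-SC Co, 1.77 to 35.5 in HF-SC GFP and at most 10.2 in b-KC libraries. In such sorted bulk samples, fewer cells of a type and less RNA per cell cannot be told apart. In HF-SC Co mouse 828 the table lists Krt15 at 0, and it lists Krt14 at 0 in b-KC GFP mouse 817 and b-KC Tom mice 814 and 817, whereas none of the 10 genes studied here was listed at 0 in any library.

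Tests were made with limma on log2(FPKM + 1) over 12751 genes, those that reached 1 FPKM in 3 or more of the 18 libraries, and a gene was called at a Benjamini-Hochberg adjusted p under 0.05. On this scale the changes of low genes come out too small. Ratios of mean FPKM are therefore given for the called increases of the 10 genes against control and for the low genes Btc and Spry4. Most other changes are given on the log2 scale alone. Of the 10 genes, 9 passed the filter. Btc did not and was tested in a fit without the filter. Values of 3 libraries are given in the order 810, 825 and 828 for control mice and 814, 815 and 817 for DKO* mice, and errors are SD over 3 mice or, for log2 fold changes, standard errors (SE).

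Epgn, Ereg, Areg and Btc, 4 of the 6 ligand genes, are neighbors on chromosome 5. In the NCBIM37 annotation, which is the build of the files, Epgn spans 91456490 to 91464241, Ereg 91503643 to 91522675 and Areg 91568641 to 91577458 on the plus strand, and Btc spans 91786287 to 91831939 on the minus strand. No other protein-coding gene is annotated in this stretch of 375 kb. The neighbors did not share a level: in the 18 libraries Areg ranged from 1.43 to 76.9 FPKM, Epgn from 3.71 to 61.1 FPKM, Ereg from 0.743 to 12.5 FPKM and Btc from 0.0703 to 0.856 FPKM. Of the other genes, those given here lie on chromosome 6 (Tgfa, 86145420 to 86225151, plus strand), chromosome 11 (Egfr, 16652206 to 16818161, and Erbb2, 98273784 to 98299030, both on the plus strand), chromosome 10 (Erbb3, 128004579 to 128026708, minus strand) and chromosome 4 (Errfi1, 150228028 to 150243001, plus strand). The position of Hbegf is not given.

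**Figure D1:**
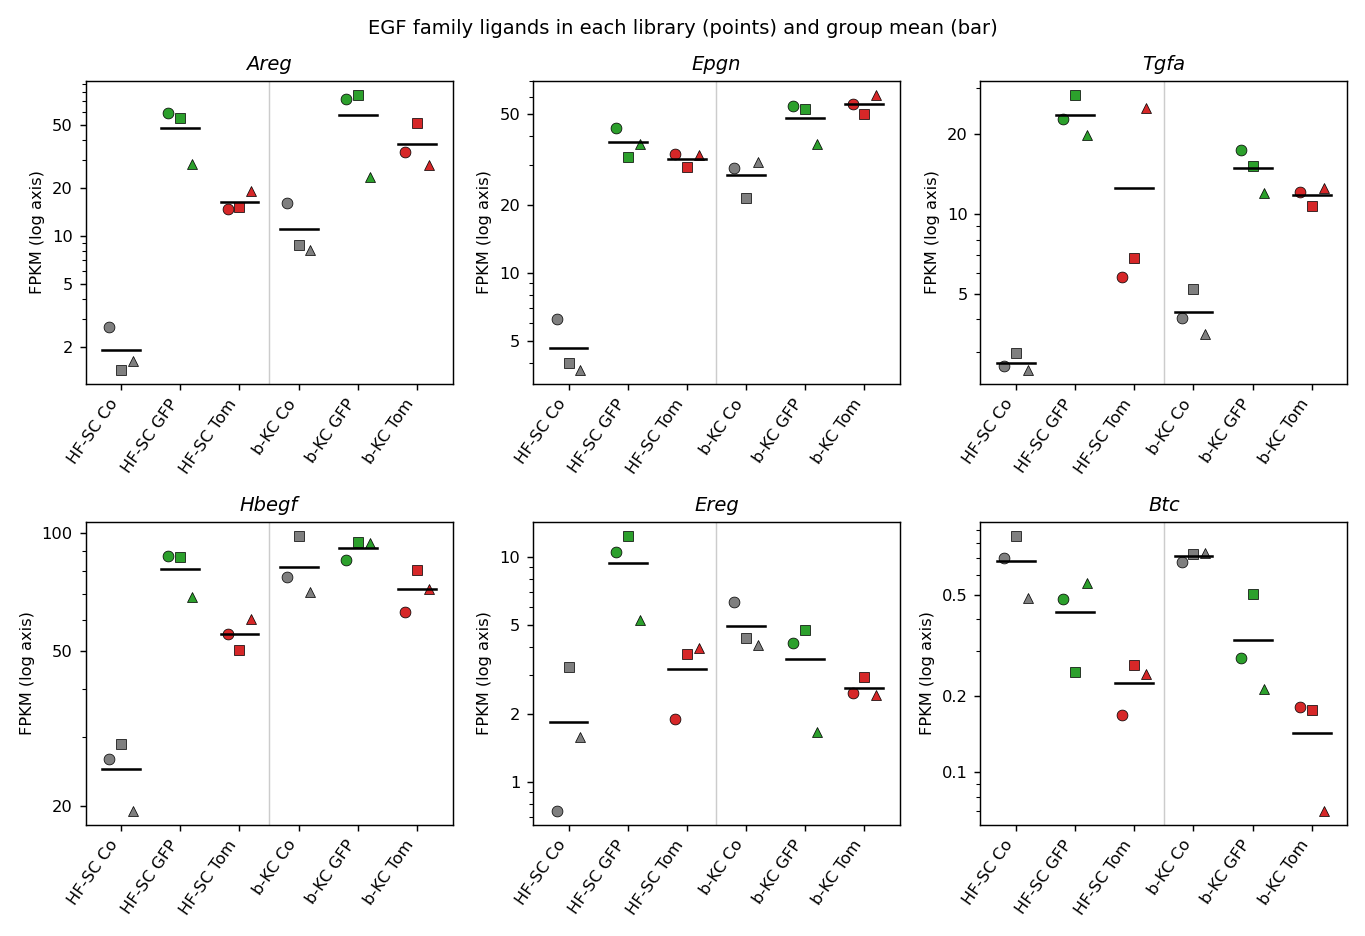
Levels of the 6 EGF family ligand genes in FPKM (log axis, a range of its own per panel) in each library, by group. Circles, squares and triangles are mice 810, 825 and 828 in Co and mice 814, 815 and 817 in GFP and Tom, and bars are group means. Areg, Epgn and Tgfa lie above their own control in all GFP and Tom libraries of both cell types, Hbegf does so in HF-SCs and not in b-KCs, and Btc lies below its own control in both Tom groups, at levels under 1 FPKM.

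Areg encodes amphiregulin, a ligand made by keratinocytes that binds EGFR and acts on the cells that make it. It was at 2.68, 1.43 and 1.64 FPKM in control HF-SCs, at 59.3, 54.7 and 28.2 FPKM in mutant GFP HF-SCs and at 14.8, 15.1 and 19.2 FPKM in non-mutant Tom HF-SCs. These 3 groups of HF-SC libraries did not overlap. In GFP HF-SCs, mean Areg was 24.7-fold that of control (log2 fold change 4.01 ± 0.40 SE, limma adjusted p = 1.9e-06), and in Tom HF-SCs it was 8.53-fold (2.59 ± 0.40, adjusted p = 9.6e-05). In b-KCs, Areg was at 16.0, 8.80 and 8.17 FPKM in control, 72.1, 76.9 and 23.3 FPKM in GFP and 33.4, 51.1 and 27.9 FPKM in Tom, so that both DKO* fractions lay above control and overlapped each other. Mean Areg rose 5.22-fold in GFP b-KCs (log2 fold change 2.17 ± 0.40, adjusted p = 0.00075) and 3.41-fold in Tom b-KCs (1.69 ± 0.40, adjusted p = 0.0030). The GFP libraries of mouse 817 were the lowest of their group in both cell types.

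Jun proteins bind DNA as part of AP-1 dimers, so the RefSeq promoter windows (250 bases before to 50 after each start, GRCm38.p6, another build than the files) were searched on both strands for 2 motifs, the AP-1 motif TGANTCA and the cyclic AMP response element (CRE) TGACGTCA, no stretch of which matches the AP-1 motif. Windows were given for 7 of the 10 genes, with 8 starts, and not for Ereg, Hbegf and Erbb3. None of the 8 windows held the AP-1 motif, which 7.81% of all 32851 windows hold. The CRE, held by 1.79% of all windows, was found before the start of Areg and before the second start of Errfi1, the most increased ligand and the inhibitor that was decreased. The 100 bases before each of these starts are shown, on the plus strand, with the CRE in capitals. For Areg they are chr5:91139499-91139598 with the match beginning 61 bases before the start, and for Errfi1 chr4:150854970-150855069 with the match 51 bases before the start.
Areg: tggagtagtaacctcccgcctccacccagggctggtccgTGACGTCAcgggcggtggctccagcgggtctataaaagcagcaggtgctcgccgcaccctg
Errfi1: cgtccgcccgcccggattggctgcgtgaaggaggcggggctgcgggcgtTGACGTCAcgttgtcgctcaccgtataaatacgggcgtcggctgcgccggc
A match of letters is not a binding site, and the part of the CRE in the changes of Areg and Errfi1 was not tested.

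Epgn encodes epigen, a ligand of low affinity for EGFR. Its level was 6.21, 3.99 and 3.71 FPKM in control HF-SCs, 43.5, 32.5 and 37.1 FPKM in GFP HF-SCs and 33.3, 29.3 and 33.1 FPKM in Tom HF-SCs. All DKO* HF-SC libraries lay above control, and the GFP and Tom fractions overlapped. The increase was 8.13-fold in GFP (log2 fold change 2.80 ± 0.19, limma adjusted p = 5.8e-08) and 6.88-fold in Tom HF-SCs (2.57 ± 0.19, adjusted p = 7.1e-08). In control b-KCs, Epgn was already at 28.9, 21.3 and 30.8 FPKM, close to the level of DKO* HF-SCs. It was at 54.7, 52.9 and 36.9 FPKM in GFP and 55.8, 50.2 and 61.1 FPKM in Tom b-KCs, above control in each library, with smaller increases of 1.78-fold (log2 fold change 0.81 ± 0.19, adjusted p = 0.0037) and 2.06-fold (1.03 ± 0.19, adjusted p = 0.00051).

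Ereg encodes epiregulin, which activates EGFR and ERBB4. It was at 0.743, 3.24 and 1.59 FPKM in control HF-SCs, at 10.6, 12.5 and 5.23 FPKM in GFP HF-SCs and at 1.90, 3.72 and 3.95 FPKM in Tom HF-SCs. Only the GFP fraction of HF-SCs lay wholly above control and Tom, with 5.08-fold the mean of control (log2 fold change 1.89 ± 0.36, limma adjusted p = 0.00066). In Tom HF-SCs the log2 fold change was 0.61 (95% confidence interval -0.15 to 1.37, adjusted p = 0.18). In b-KCs, Ereg was at 6.31, 4.38 and 4.05 FPKM in control, 4.13, 4.73 and 1.67 FPKM in GFP and 2.49, 2.93 and 2.43 FPKM in Tom. The fitted changes in b-KCs were negative, at -0.45 (interval -1.20 to 0.31, adjusted p = 0.33) in GFP and -0.69 (interval -1.45 to 0.06, adjusted p = 0.12) in Tom, and neither was called. The Tom b-KC libraries nevertheless lay below control without overlap, and with only these 2 groups fitted Ereg was called lower in Tom b-KCs (limma adjusted p = 0.011).

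Btc encodes betacellulin, a ligand of EGFR and ERBB4, and was the least abundant of the 6 ligand genes. Its level was 0.695, 0.856 and 0.485 FPKM in control HF-SCs, 0.483, 0.248 and 0.556 FPKM in GFP HF-SCs and 0.168, 0.265 and 0.243 FPKM in Tom HF-SCs. In b-KCs it was at 0.674, 0.722 and 0.732 FPKM in control, 0.281, 0.503 and 0.213 FPKM in GFP and 0.180, 0.176 and 0.0703 FPKM in Tom. The Tom libraries of both cell types and the GFP libraries of b-KCs lay below their controls without overlap, against the direction of Areg, Epgn and Tgfa. In the fit without a filter, Btc fell by 0.45 on the log2(FPKM + 1) scale in Tom HF-SCs (limma adjusted p = 0.0040), by 0.37 in GFP b-KCs (adjusted p = 0.018) and by 0.58 in Tom b-KCs (adjusted p = 0.00085), while the change in GFP HF-SCs was -0.23 (adjusted p = 0.12). Mean Btc was 0.33-fold that of control in Tom HF-SCs, 0.47-fold in GFP b-KCs, 0.20-fold in Tom b-KCs and 0.63-fold in GFP HF-SCs. These levels correspond to 3.89 to 45.7 implied reads per library, against a floor of 3 reads that is worth 0.0408 to 0.0649 FPKM for Btc, and the lowest library is close to that floor.

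Tgfa encodes transforming growth factor alpha, an EGFR ligand known to be raised in psoriatic epidermis. It was at 2.66, 2.99 and 2.57 FPKM in control HF-SCs, at 22.8, 28.2 and 20.0 FPKM in GFP HF-SCs and at 5.78, 6.84 and 25.2 FPKM in Tom HF-SCs. All DKO* libraries lay above control, and the Tom library of mouse 817 was at the level of the GFP libraries. The increase was 8.64-fold in GFP HF-SCs (log2 fold change 2.71 ± 0.35, limma adjusted p = 2.3e-05) and 4.60-fold in Tom HF-SCs (1.58 ± 0.35, adjusted p = 0.0019). Without mouse 817 the log2 fold change in Tom HF-SCs was 0.96, and the call held. In b-KCs, Tgfa was at 4.04, 5.22 and 3.52 FPKM in control, 17.4, 15.2 and 12.1 FPKM in GFP and 12.1, 10.8 and 12.5 FPKM in Tom, all DKO* libraries again above control. It rose 3.49-fold in GFP b-KCs (log2 fold change 1.59 ± 0.35, adjusted p = 0.0025) and 2.77-fold in Tom b-KCs (1.29 ± 0.35, adjusted p = 0.0072).

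Hbegf encodes heparin-binding EGF-like growth factor, which is involved in keratinocyte migration during wound healing. It was the most abundant ligand of control cells, at 26.4, 28.9 and 19.5 FPKM in control HF-SCs and 77.1, 98.7 and 70.7 FPKM in control b-KCs. In HF-SCs it was at 87.5, 87.0 and 68.6 FPKM in GFP and 55.4, 50.3 and 60.2 FPKM in Tom, and the 3 HF-SC groups did not overlap. The increase was 3.25-fold in GFP HF-SCs (log2 fold change 1.67 ± 0.16, limma adjusted p = 1.5e-06) and 2.22-fold in Tom HF-SCs (1.13 ± 0.16, adjusted p = 4.8e-05), and 2 of the 3 GFP HF-SC libraries were within the range of control b-KCs. In b-KCs, Hbegf was at 85.4, 95.1 and 94.7 FPKM in GFP and 62.8, 80.4 and 72.2 FPKM in Tom, overlapping with control. The fitted log2 changes in b-KCs were 0.17 (95% confidence interval -0.18 to 0.51, adjusted p = 0.42) in GFP and -0.18 (interval -0.53 to 0.16, adjusted p = 0.37) in Tom.

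FPKM is scaled by transcript length, so the ligands can be added up. The summed level of the 6 ligand genes was 36.8 ± 6.41 FPKM (SD, n = 3) in control HF-SCs, 199.7 ± 35.0 FPKM in GFP HF-SCs and 119.6 ± 19.5 FPKM in Tom HF-SCs. In b-KCs the sum was 130.04 ± 10.9 FPKM in control, 216 ± 41.2 FPKM in GFP and 179.5 ± 14.7 FPKM in Tom. Control HF-SCs thus had the lowest sum of the 6 groups, and within each cell type every DKO* library lay above every control library. The composition of the sum differed as well. Hbegf made up 67.6% ± 1.97 of it in control HF-SCs and 62.9% ± 7.00 in control b-KCs, against 40.8% ± 2.0 in GFP HF-SCs, 46.6% ± 3.74 in Tom HF-SCs, 43.8% ± 10.7 in GFP b-KCs and 39.9% ± 1.96 in Tom b-KCs. Areg took 5.28% ± 1.71 of the sum in control HF-SCs, 23.2% ± 4.82 in GFP HF-SCs and 13.7% ± 0.507 in Tom HF-SCs. In b-KCs its share was 8.43% ± 3.14 in control, 25.3% ± 9.97 in GFP and 20.7% ± 5.17 in Tom. Epgn was second by mean share in the control and Tom groups, with 12.7% ± 3.08 in control HF-SCs, 27.0% ± 3.38 in Tom HF-SCs, 21.0% ± 5.42 in control b-KCs and 31.3% ± 4.88 in Tom b-KCs, and in both GFP groups it came after Areg. These sums and shares are descriptions and were not tested.

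**Figure D2:**
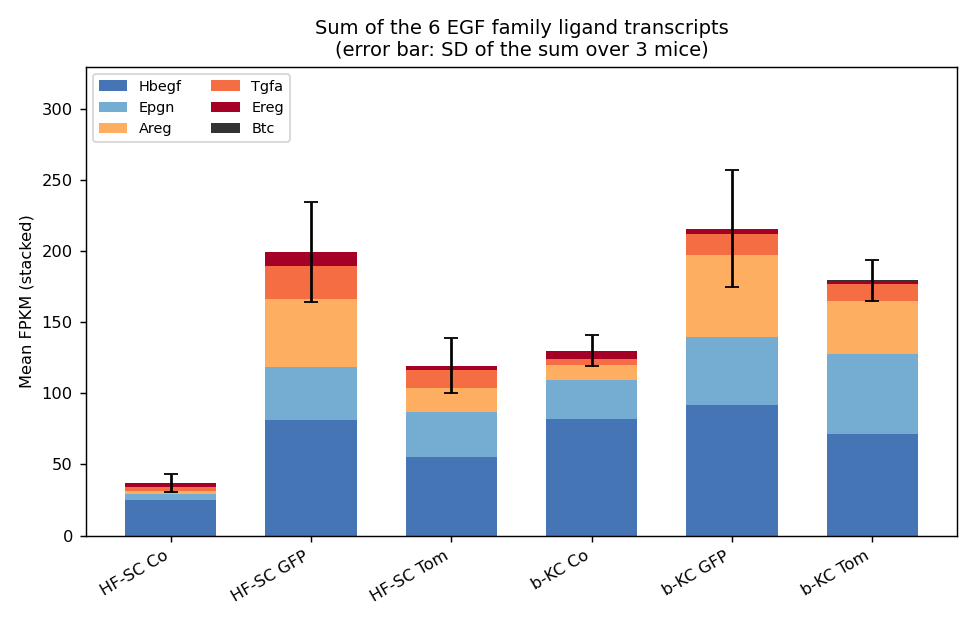
Mean FPKM of the 6 EGF family ligand genes, stacked, in each group, with the SD of the sum over 3 mice as the error bar. The sum is 36.8 FPKM in HF-SC Co and 119.6 to 216 FPKM in the other groups, and the Areg part is wider in all GFP and Tom groups than in the control of the same cell type.

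Of the receptors, Egfr, which binds all 6 ligands, was expressed in every group. It was at 59.5, 76.6 and 77.1 FPKM in control HF-SCs, 47.3, 59.1 and 73.3 FPKM in GFP HF-SCs and 24.1, 31.7 and 52.1 FPKM in Tom HF-SCs. The Tom libraries lay below control without overlap, whereas GFP and control overlapped. Egfr fell by 1.02 on the log2 scale in Tom HF-SCs (SE 0.28, limma adjusted p = 0.0077), a call that was lost without mouse 814 (adjusted p = 0.059), and its fitted change in GFP HF-SCs was -0.26 (95% confidence interval -0.85 to 0.34, adjusted p = 0.49). The endothelial sum was lowest, at 486 FPKM, in the Tom HF-SC library of mouse 817, in which Egfr was highest, and the part of endothelial transcripts in this result was not tested. In b-KCs, Egfr was at 37.7, 45.8 and 46.3 FPKM in control, 32.1, 29.1 and 58.3 FPKM in GFP and 29.1, 21.9 and 33.4 FPKM in Tom. The Tom b-KC libraries, with an endothelial sum of 5.01 to 10.2 FPKM, also lay below control without overlap, with a log2 change of -0.62 (interval -1.21 to -0.03, adjusted p = 0.081), called with the mouse as a random replicate block (adjusted p = 0.046), with only the groups compared (adjusted p = 0.016) and without mouse 817 (adjusted p = 0.0023). In GFP b-KCs the log2 change was -0.18 (interval -0.77 to 0.41, adjusted p = 0.63), and without mouse 817, whose library was the highest, it was called at -0.48 (adjusted p = 0.027).

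Erbb2 encodes the receptor that binds no ligand itself and serves as the partner of the others. In b-KCs it was at 57.4, 56.4 and 56.1 FPKM in control, 30.4, 29.5 and 36.1 FPKM in GFP and 36.6, 34.8 and 34.2 FPKM in Tom. Both DKO* fractions lay well below control, while the spread within control was small. Erbb2 fell by 0.81 on the log2 scale in GFP b-KCs (SE 0.22, limma adjusted p = 0.010) and by 0.67 in Tom b-KCs (SE 0.22, adjusted p = 0.023). The first call was lost without mouse 815 (adjusted p = 0.078), and the second without mouse 810, 815, 825 or 828 and in the fit without a filter (adjusted p up to 0.097). In HF-SCs, Erbb2 was at 22.4, 30.3 and 25.8 FPKM in control, 28.1, 36.1 and 31.5 FPKM in GFP and 14.2, 19.0 and 35.7 FPKM in Tom, and all 3 groups overlapped. Without mouse 817, whose Tom library was the highest, Erbb2 was called lower in Tom HF-SCs (log2 fold change -0.63, adjusted p = 0.0026), against -0.27 with it (adjusted p = 0.35).

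Erbb3 encodes a receptor with little kinase activity of its own, which recruits PI3 kinase when paired with EGFR or ERBB2. It was at 9.50, 15.6 and 13.5 FPKM in control HF-SCs, 24.7, 37.9 and 32.0 FPKM in GFP HF-SCs and 10.1, 11.8 and 29.6 FPKM in Tom HF-SCs. GFP lay above control without overlap, and Tom mouse 817 stood apart from the other 2 Tom libraries. Erbb3 rose 2.45-fold in GFP HF-SCs (log2 fold change 1.23 ± 0.29, limma adjusted p = 0.0036), and in Tom the log2 change was 0.26 (95% confidence interval -0.36 to 0.88, adjusted p = 0.49). In b-KCs, Erbb3 was at 32.1, 31.7 and 35.4 FPKM in control, 28.3, 27.2 and 34.4 FPKM in GFP and 38.8, 27.8 and 29.8 FPKM in Tom. The b-KC groups overlapped, with log2 changes of -0.14 (interval -0.77 to 0.48, adjusted p = 0.72) and -0.05 (interval -0.67 to 0.57, adjusted p = 0.90).

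Errfi1, the inhibitor, lay below control in every DKO* library of both cell types. In b-KCs it was at 75.4, 119 and 93.3 FPKM in control, 30.2, 38.2 and 50.5 FPKM in GFP and 26.9, 46.6 and 57.3 FPKM in Tom. Every DKO* b-KC library lay below control, by 1.26 on the log2 scale in GFP (SE 0.27, limma adjusted p = 0.0021) and 1.16 in Tom (SE 0.27, adjusted p = 0.0028). In HF-SCs, Errfi1 was at 54.4, 62.2 and 74.6 FPKM in control, 30.2, 33.5 and 43.4 FPKM in GFP and 30.8, 47.2 and 48.3 FPKM in Tom, both fractions again below control without overlap. It fell by 0.82 in GFP HF-SCs (SE 0.27, adjusted p = 0.025), a call lost without mouse 815, 825 or 828 and in the fit without a filter (adjusted p up to 0.12). In Tom HF-SCs the log2 change was -0.60 (SE 0.27, adjusted p = 0.083), and it was called with the mouse as a random replicate block (adjusted p = 0.044) and without mouse 817 (adjusted p = 0.024).

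**Figure D3:**
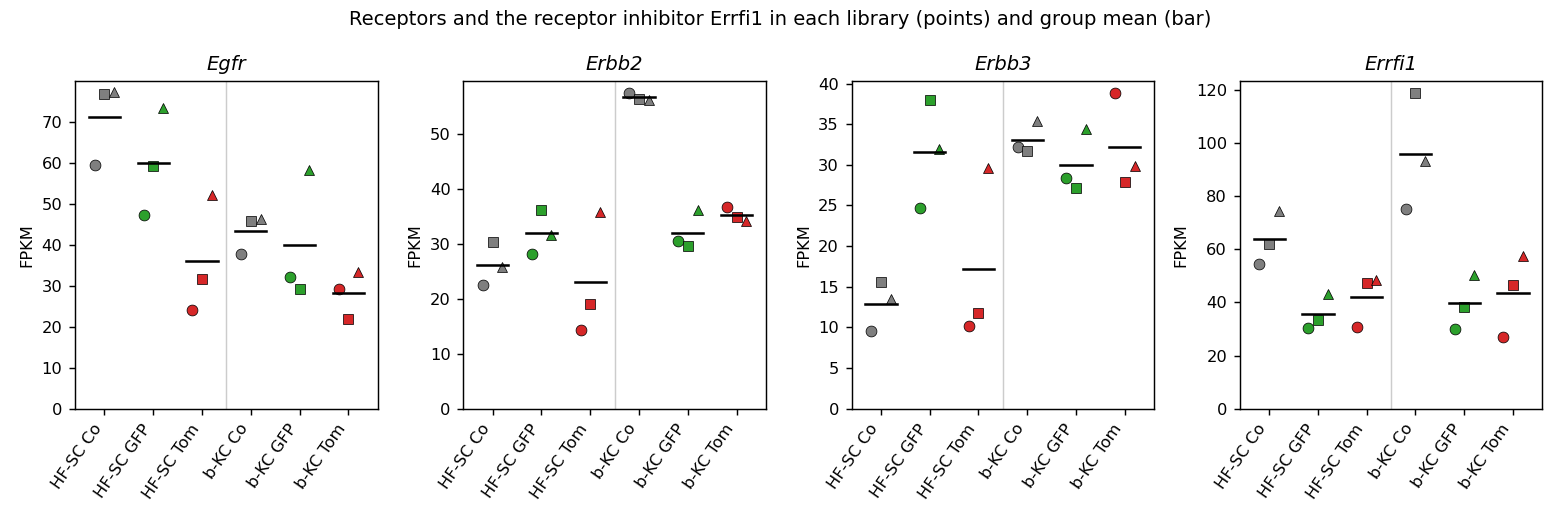
Levels of Egfr, Erbb2, Erbb3 and Errfi1 in FPKM in each library, by group, with symbols for mice as in the plot of the ligands and bars for group means. Erbb2 separates control b-KCs (56.1 to 57.4 FPKM) from all other groups, Errfi1 is lower in all DKO* groups than in their controls, and the Tom HF-SC library of mouse 817 (triangle) stands above the other Tom HF-SC libraries for Egfr, Erbb2 and Erbb3.

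The counts of called members were read against those of all genes. In GFP HF-SCs against control, 6 of the 9 genes tested were higher (Areg, Epgn, Ereg, Tgfa, Hbegf and Erbb3) and 1 was lower (Errfi1), where 18.5% and 20.0% of all 12751 genes were called higher and lower. In Tom HF-SCs, 4 were higher (Areg, Epgn, Tgfa and Hbegf) and 1 was lower (Egfr), beside 22.3% and 22.1% of all genes. In GFP b-KCs, 3 were higher (Areg, Epgn and Tgfa) and 2 were lower (Erbb2 and Errfi1), beside 20.3% and 21.3%, and in Tom b-KCs the counts were again 3 higher and 2 lower, for the same 5 genes, beside 22.6% and 23.3%. The b-KC shares of 3 and 2 in 9 are close to those of all genes. The median log2 fold change of the 9 genes was 1.67 in GFP HF-SCs, 0.61 in Tom HF-SCs, -0.14 in GFP b-KCs and -0.18 in Tom b-KCs, against -0.05, -0.04, -0.03 and -0.02 for all genes tested. At a stricter rule (adjusted p under 0.01 and a log2 change of 2 or more in either direction), Areg, Epgn and Tgfa were called in GFP HF-SCs (3.07% of all genes), Areg and Epgn in Tom HF-SCs (4.09%), Areg in GFP b-KCs (1.87%) and none of the 9 in Tom b-KCs (2.75%), where 6 had an unadjusted p under 0.05 in limma. Within a cell type, both DKO* fractions were set against the same control libraries.

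Markers of other cell types and states moved in the same comparisons with control. In GFP HF-SCs, 2 of 4 suprabasal keratinocyte genes were called higher (summed level 640 to 1475 FPKM, against 306 to 429 FPKM in control), among them Krt1, a keratin of differentiating cells (71.2 ± 12.0 FPKM in control and 593 ± 327 FPKM in GFP). Also higher there were 3 of 5 melanocyte genes (summed level 7.32 to 17.7 FPKM, against 3.68 to 5.98 FPKM) and 2 of the 3 tested leukocyte genes (summed level of 7 leukocyte genes, tested or not, 3.89 to 13.3 FPKM, against 1.72 to 3.65 FPKM). Of 10 endothelial genes 9 were called lower, as were 3 of 6 bulge genes, among them Cd34 (736 ± 134 FPKM in control and 198 ± 34.4 FPKM in GFP). In Tom HF-SCs, 5 of 6 bulge genes were called lower, 2 suprabasal genes higher and 1 lower (summed level 531 to 688 FPKM), 1 leukocyte gene higher (4.17 to 11.1 FPKM), 1 of 4 tested fibroblast genes lower and all 10 endothelial genes higher. In b-KCs, 2 of 4 suprabasal genes were called lower in each fraction, with sums of 1772 to 2210 FPKM in GFP and 1322 to 3267 FPKM in Tom, against 3576 to 4537 FPKM in control. Bulge genes were called lower for 1 of 6 in GFP and 4 of 6 in Tom b-KCs. The bulge sum there was 523 to 1163 FPKM in GFP and 178 to 699 FPKM in Tom, against 3088 to 3154 FPKM in control, and it includes Krt15, whose own change was not called in either (limma adjusted p = 0.47 and 0.24). In GFP b-KCs 1 leukocyte gene (summed level 2.71 to 3.08 FPKM, against 0.789 to 1.12 FPKM in control) and in each b-KC fraction 1 endothelial gene were called higher. Of 6 basal keratinocyte genes, 1 was called higher in each of the 4 comparisons and 1 lower in all but GFP HF-SCs, in Tom b-KCs Krt14, which is listed at 0 in 2 libraries. The part of these markers in the changes of the EGF family genes was not tested.

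**Figure D4:**
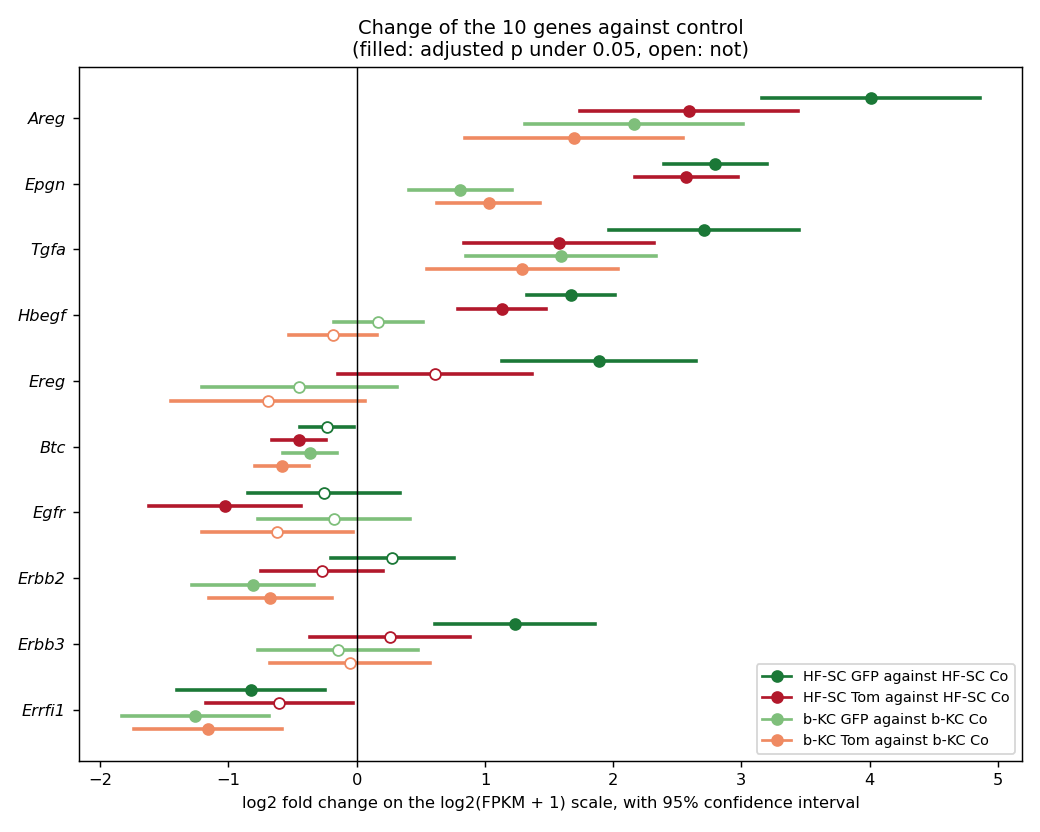
Log2 fold change of the 10 genes against the control of the same cell type on the log2(FPKM + 1) scale, with 95% confidence intervals. Filled points have an adjusted p under 0.05, and Btc is from the fit without a filter. Areg, Epgn and Tgfa are filled and to the right of 0 in all 4 comparisons, with Areg from 1.69 to 4.01, and Errfi1 lies to the left of 0 in all 4.

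Control HF-SCs and control b-KCs of the same mice already differed in most of these genes. In HF-SCs, 6 of the 9 tested genes were lower and 1 was higher, where 27.3% and 24.6% of all genes were called lower and higher. The largest differences were in Epgn, 5.82-fold higher in control b-KCs (log2 difference, HF-SC minus b-KC, -2.32 ± 0.19, limma adjusted p = 8.8e-08), and Areg, 5.73-fold higher in control b-KCs (-2.01 ± 0.40, adjusted p = 0.00063), and both passed the stricter rule, as 5.65% of all genes did. Hbegf (-1.69, adjusted p = 5.5e-07), Erbb3 (-1.32, adjusted p = 0.0015), Ereg (-1.13, adjusted p = 0.015) and Erbb2 (-1.09, adjusted p = 0.00080) were also lower in HF-SCs. Egfr went the other way (0.70 ± 0.28, adjusted p = 0.046), so that control HF-SCs had the highest mean Egfr and the lowest mean ligand sum of the 6 groups. The Egfr call was lost when any control mouse was left out and in the fit without a filter (adjusted p up to 0.16), and that of Ereg without mouse 810 or 828 (adjusted p up to 0.22). Errfi1, not called here (-0.57, adjusted p = 0.090), was called with the mouse as a replicate block (adjusted p = 0.020 as a random block and 0.0075 as a fixed block), and also with only the control groups fitted and no block (adjusted p = 0.025). Tgfa (-0.48, adjusted p = 0.26) was called with the fixed block (adjusted p = 0.0089) and with only the control groups fitted and no block (adjusted p = 0.018), and not with the random block (adjusted p = 0.22). All 10 endothelial and all 4 tested fibroblast genes were also higher in control HF-SCs, and all 4 suprabasal keratinocyte genes (summed level 306 to 429 FPKM, against 3576 to 4537 FPKM in b-KCs) were lower, and their part in these differences was not tested.

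Of the 6 groups, control HF-SCs had the lowest mean level of each ligand but Btc. For Areg the order was HF-SC Co, b-KC Co, HF-SC Tom, b-KC Tom, HF-SC GFP and b-KC GFP, with gaps between the libraries after HF-SC Co and after HF-SC Tom and overlap between the other neighbors. For Tgfa the order was HF-SC Co, b-KC Co, b-KC Tom, HF-SC Tom, b-KC GFP and HF-SC GFP, with overlap among the 3 groups from b-KC Tom to b-KC GFP. HF-SC GFP lay above b-KC GFP without overlap but overlapped with HF-SC Tom through mouse 817. For Hbegf, HF-SC Co and HF-SC Tom stood apart below b-KC Tom, HF-SC GFP, b-KC Co and b-KC GFP, which overlapped from neighbor to neighbor. For Errfi1, the 4 DKO* groups overlapped at means of 35.7 to 43.6 FPKM, and control HF-SCs at 63.8 ± 10.2 FPKM and control b-KCs at 95.8 ± 21.9 FPKM followed without overlap between them, the former overlapping with b-KC Tom.

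The GFP and Tom fractions of a cell type came from the same DKO* mice. In HF-SCs, 2 of the 9 tested genes were called higher in GFP than in Tom and none was called lower, where 2.83% and 5.80% of all genes were. Areg was higher in GFP in 3 of 3 mice, by 4.00-fold, 3.63-fold and 1.47-fold (log2 difference 1.42 ± 0.40, limma adjusted p = 0.037), and Ereg by 5.56-fold, 3.35-fold and 1.32-fold (1.28 ± 0.36, adjusted p = 0.034). Mouse 817 gave the smallest ratio for both ligands. Hbegf, Epgn, Egfr and Erbb3 were also higher in GFP in 3 of 3 mice, Tgfa and Erbb2 in 2 of 3, and Errfi1 was lower in GFP in 3 of 3. These calls depended on the mice and on the fit. Without mouse 817, 7 genes were called, among them Tgfa (log2 difference 1.86, adjusted p = 1.5e-06) and Erbb3 (1.41, adjusted p = 0.00042), and without mouse 814 or 815 the count was 0. With the mouse as a random replicate block 6 genes were called (Areg, Ereg, Hbegf, Tgfa, Egfr and Erbb3), and with the mouse as a fixed replicate block over the GFP and Tom libraries alone the count was 0, with adjusted p = 0.062 for Areg and 0.10 for Ereg. With the same 2 groups alone and no block the count was also 0 (adjusted p = 0.056 for Areg and 0.13 for Ereg), as it was in the fit without a filter. At an unadjusted p under 0.05 in limma 7 of the 9 differed, and none passed the stricter rule, which 1.98% of all genes did. All 10 endothelial genes were lower in GFP than in Tom HF-SCs. The 4 suprabasal genes (median difference 1.12) and the 5 melanocyte genes (median 0.91) were all positive, with 1 of each list called higher. Of 3 tested leukocyte genes, 1 was called higher and 1 was negative. The part of these markers in these differences was not tested.

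In b-KCs, none of the 9 genes was called between GFP and Tom in limma, where 1.19% of all genes were higher and 0.518% lower in GFP and 0.0863% passed the stricter rule. Hbegf alone had an unadjusted p under 0.05, and it was higher in GFP in 3 of 3 mice (log2 difference 0.35, 95% confidence interval 0.01 to 0.70, adjusted p = 0.41). Egfr and Btc were also higher in GFP in 3 of 3 mice, Areg, Ereg and Tgfa in 2 of 3, and Epgn, Erbb2, Erbb3 and Errfi1 in 1 of 3. The intervals of the other genes among the 9 were wide, such as -0.38 to 1.32 for Areg and -0.62 to 0.18 for Epgn, so that similar levels in both fractions were not shown. With either replicate block the count was also 0.

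For several members the log2 change from control was more positive in HF-SCs than in b-KCs, as tested by interaction terms. For GFP, 6 of the 9 genes had a called difference, all more positive in HF-SCs, where 7.31% of all genes were called in that direction and 5.22% in the other. The differences of the log2 changes were 1.99 ± 0.27 for Epgn (limma adjusted p = 0.00030), 1.50 ± 0.23 for Hbegf (adjusted p = 0.00066), 2.34 ± 0.50 for Ereg (adjusted p = 0.0070), 1.84 ± 0.57 for Areg (adjusted p = 0.044), 1.09 ± 0.32 for Erbb2 (adjusted p = 0.034) and 1.38 ± 0.41 for Erbb3 (adjusted p = 0.039). For Erbb2 the term set a fall in b-KCs (-0.81) against a fitted change of 0.28 in HF-SCs that was not called. Ereg passed the stricter rule, as 0.863% of all genes did, and its call was lost without mouse 810 or 815 (limma adjusted p up to 0.056). The count of 6 fell to 2 without mouse 810 or 815 and to 3 without mouse 825 or 828 or without the filter, and Areg, Erbb2 and Erbb3 lost their calls in 7, 5 and 6 of the 12 alternatives, whereas Epgn and Hbegf kept theirs in all 12. Tgfa, not called, was called with only the groups compared (adjusted p = 0.0092) and without mouse 817 (adjusted p = 0.0024). For Tom, Epgn (1.54 ± 0.27, adjusted p = 0.0010) and Hbegf (1.32 ± 0.23, adjusted p = 0.0010) were called, 2 of the 9 genes, where 10.3% of all genes were called toward HF-SCs and 5.58% toward b-KCs. None of the 9 passed the stricter rule for Tom, as 1.98% of all genes did, and at an unadjusted p under 0.05 limma gave 3 of 9. The lower control level of these genes in HF-SCs enters both the interaction terms and the comparison of controls, which share libraries. For GFP, 3 of the 4 suprabasal genes were also called more positive in HF-SCs (median difference 2.34), the 6 basal keratinocyte genes were all positive (median 0.98) with none called, though 2 had an unadjusted p under 0.05 in limma, and 3 of the 10 endothelial genes were called more negative. For Tom, 9 of the 10 endothelial genes were called more positive. Their part in these terms was not tested.

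Other genes of the pathway were taken from 4 lists with 40 genes, of which 37 were tested. Among ligands and receptors outside the 10, Nrg1, which encodes neuregulin 1, a ligand of ERBB3 and ERBB4, was higher in all 4 comparisons. Its mean was 0.649 ± 0.188 FPKM in control HF-SCs, 7.68 ± 0.817 FPKM in GFP and 7.94 ± 4.89 FPKM in Tom HF-SCs (log2 fold changes 2.40 and 2.31, limma adjusted p = 6.8e-06 and 7.3e-06). In b-KCs it was 1.25 ± 0.466 FPKM in control, 6.08 ± 1.48 FPKM in GFP and 7.14 ± 0.279 FPKM in Tom (1.65 and 1.87, adjusted p = 0.00034 and 7.2e-05). Nrg4 fell by 0.72 in Tom b-KCs (adjusted p = 0.0024), and Nrg2 was called in none of the 4. Egf stayed between 0.191 and 0.495 FPKM and Erbb4 at or under 0.0289 FPKM in all libraries, and neither passed the filter.

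Of the 4 genes for ligand shedding, 2 rose in both HF-SC fractions and none fell, where 18.5% and 22.3% of all genes were called higher in GFP and Tom. In b-KCs none was called higher, where 20.3% and 22.6% of all genes were. Rhbdf2 encodes iRhom2, the partner that brings ADAM17 to the cell surface. It rose by 1.34 on the log2 scale in GFP HF-SCs (limma adjusted p = 2.3e-05) and 0.74 in Tom HF-SCs (adjusted p = 0.0029). Adam10 encodes the protease that sheds EGF and betacellulin, and it rose by 0.98 in GFP HF-SCs (adjusted p = 0.00073) and 1.38 in Tom HF-SCs (adjusted p = 3.0e-05). Adam17, whose product sheds most other EGFR ligands, fell by 0.47 in GFP b-KCs (adjusted p = 0.012). By the interaction terms, the log2 change was more positive in HF-SCs than in b-KCs for Rhbdf2 (difference 1.20 for GFP and 0.96 for Tom, limma adjusted p = 0.0049 and 0.014) and Adam10 (0.89 and 0.96, adjusted p = 0.038 and 0.022), and for Adam17 in GFP (0.72, adjusted p = 0.022). In the same HF-SC comparisons 2 of 4 suprabasal genes were called higher in each fraction, and 1 was called lower in Tom. Of the 10 endothelial genes 9 were called lower in GFP and all 10 higher in Tom. The part of these markers in the changes of the pathway genes was not tested.

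Among 17 genes of the cascade from the adaptors to the MAP kinases, 4 rose and 1 fell in GFP HF-SCs, 4 rose and 2 fell in Tom HF-SCs, 1 rose and 3 fell in GFP b-KCs, and 2 rose and 4 fell in Tom b-KCs. Among all genes, 18.5% rose and 20.0% fell in GFP HF-SCs, 22.3% and 22.1% in Tom HF-SCs, 20.3% and 21.3% in GFP b-KCs, and 22.6% and 23.3% in Tom b-KCs, so that each count of the list was near or below that of all genes. Map2k1, encoding the kinase MEK1, rose in all 4 comparisons, by 1.36 in GFP HF-SCs (limma adjusted p = 2.4e-05), 0.56 in Tom HF-SCs (adjusted p = 0.018), 1.60 in GFP b-KCs (adjusted p = 1.4e-05) and 0.98 in Tom b-KCs (adjusted p = 0.00042). Gab1, a docking protein for activated receptors, fell by 1.12 in GFP b-KCs (adjusted p = 0.0057) and 0.89 in Tom b-KCs (adjusted p = 0.017).

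Among 13 feedback inhibitors, which limit receptor or MAP kinase activity, 7 fell and 1 rose in GFP b-KCs, and 9 fell and none rose in Tom b-KCs, where 21.3% and 23.3% of all genes fell and 20.3% and 22.6% rose. In HF-SCs, 1 fell and 1 rose in GFP, below the 20.0% and 18.5% of all genes, and 5 fell and 1 rose in Tom, where 22.1% and 22.3% did. Of the marker lists, 2 of 4 suprabasal genes in each b-KC fraction and 1 of 6 bulge genes in GFP and 4 of 6 in Tom b-KCs were also called lower, and their part in the changes of this list was not tested. The medians of the list were -0.14 in GFP HF-SCs, -0.46 in Tom HF-SCs, -0.65 in GFP b-KCs and -0.76 in Tom b-KCs, against -0.05, -0.04, -0.03 and -0.02 for all genes tested. Spry1, a Sprouty inhibitor of receptor signaling, fell in Tom b-KCs from 71.8 ± 5.55 to 18.3 ± 7.82 FPKM (limma adjusted p = 4.1e-05) and by 1.07 on the log2 scale in Tom HF-SCs (adjusted p = 0.0048). Lrig1, which promotes degradation of ERBB receptors and marks epidermal stem cells, fell by 1.41 in Tom b-KCs (adjusted p = 0.00089), from 25.5 ± 3.64 to 8.89 ± 0.386 FPKM. Spry4 went the other way, rising by 0.53 in GFP HF-SCs (adjusted p = 0.017), 1.00 in Tom HF-SCs (adjusted p = 0.00014) and 0.75 in GFP b-KCs (adjusted p = 0.0021), at means of at most 2.55 FPKM.

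**Figure D5:**
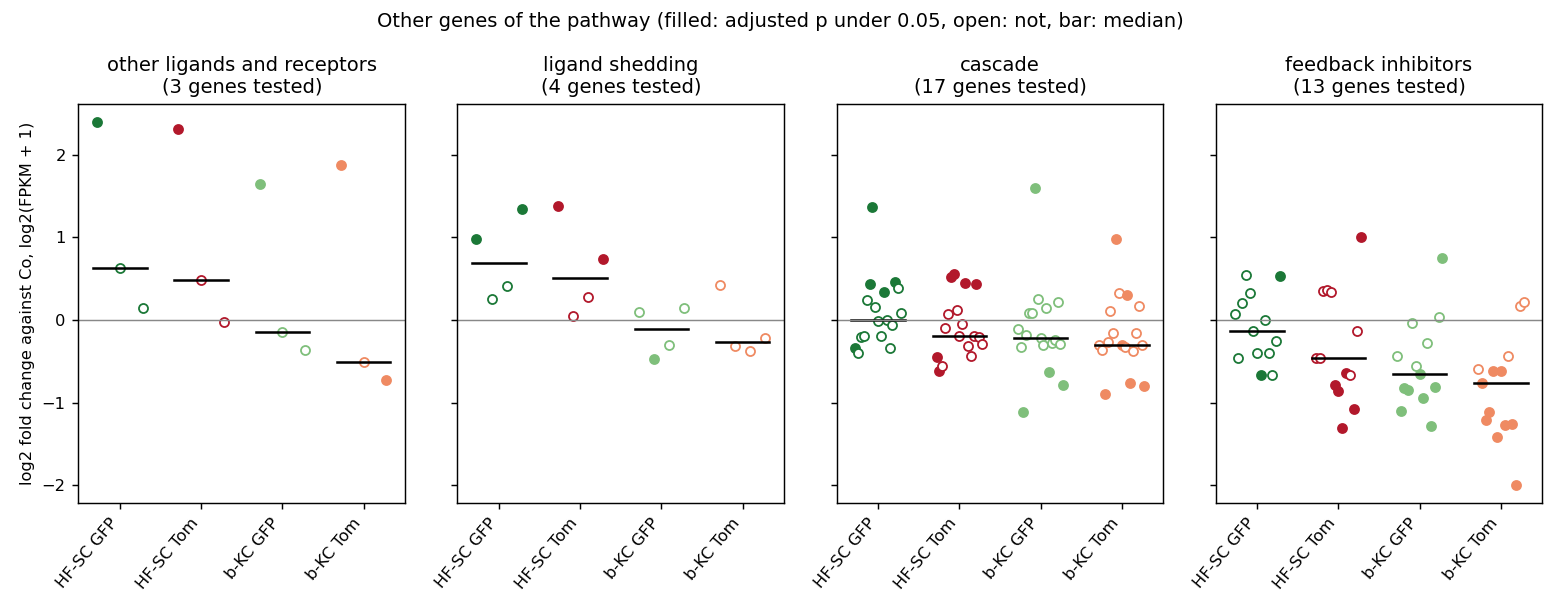
Log2 fold changes of 37 other genes of the EGF receptor pathway against the control of the same cell type, in 4 lists. Each point is a gene, filled points have an adjusted p under 0.05, and bars are medians. The feedback inhibitors have medians from -0.14 in HF-SC GFP to -0.76 in b-KC Tom, and the highest points among the other ligands and receptors are Nrg1.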

How the data were processed

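RNA of sorted cells (4 to 10 ng) was amplified with SMART-Seq v4 and made into Nextera XT libraries with 12 PCR cycles, without strand information. Single-end reads of 51 bases were aligned by the authors with TopHat 2.0.10 and Bowtie 1.0.0 to the NCBI37/mm9 genome with up to 2 mismatches, and the deposited FPKM values, made with Cufflinks 2.2.1, are scaled to transcript length and library size. Reads shared by overlapping or antisense genes cannot be told apart.

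All 23951 genes entered R 4.3.3, where those with 1 FPKM or more in 3 or more libraries (12751 genes) were fitted in limma 3.58.1 on log2(FPKM + 1) with a mean for each of the 6 groups and an eBayes trend. Benjamini-Hochberg adjustment ran over all genes tested. The members and lists were chosen with earlier results of these data known. Pathway genes named come from the called genes with the largest changes, up to 2 higher and 2 lower in each list and comparison with control, and Egf, Erbb4 and Nrg2 were chosen after seeing their values.

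The mouse numbers in the labels pair libraries of the same animal. Correlations of same-mouse deviations from the group means were 0.084 to 0.70. Mouse blocks were fitted as alternatives, besides pseudocount 0.1, no filter, only the groups compared, no eBayes trend, rescaled libraries and each mouse left out.

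Depth was read from the steps of low FPKM values. Of 7744 genes with a single annotated transcript, 74.3% to 78.4% of such values were whole reads to within 0.1. Reads were not tagged with molecular identifiers before PCR, so floors cover counting error only. Positions came from the NCBIM37 annotation, in which 20903 symbols have an entry. Depth, positions and promoters were computed in Python 3.11.15 (pandas 2.3.3 and numpy 2.4.6), and plots were drawn with matplotlib 3.10.9.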

Additional observations from a re-analysis of the deposited data

Results flagged for a closer look

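From control to mutant GFP cells, 6 of the 9 genes tested changed to a different extent in HF-SCs and b-KCs, by limma interaction terms with Benjamini-Hochberg adjustment, where 7.31% of all genes were called more positive in HF-SCs and 5.22% more negative. The difference of the log2 changes was 2.34 for Ereg (adjusted p = 0.0070), 1.99 for Epgn (adjusted p = 0.00030), 1.84 for Areg (adjusted p = 0.044), 1.50 for Hbegf (adjusted p = 0.00066), 1.38 for Erbb3 (adjusted p = 0.039) and 1.09 for Erbb2 (adjusted p = 0.034). In all 6 the change was the more positive in HF-SCs. For non-mutant Tom cells the difference was 1.54 for Epgn (adjusted p = 0.0010) and 1.32 for Hbegf (adjusted p = 0.0010), again more positive in HF-SCs, where 10.3% of all genes were called in that direction and 5.58% in the other. The calls for Epgn and Hbegf held in all 12 alternatives of both comparisons. That of Ereg was lost without mouse 810 or 815 (adjusted p up to 0.056), and those of Areg, Erbb2 and Erbb3 were lost in 7, 5 and 6 of the 12 alternatives (adjusted p up to 0.12, 0.26 and 0.25), among them the fit without a filter and most fits that left out a mouse. Marker genes moved in the same terms. For GFP, 3 of 4 suprabasal genes were called more positive in HF-SCs (median difference 2.34), all 6 basal keratinocyte genes were positive (median 0.98) with none called, though 2 had an unadjusted p under 0.05 in limma, and 3 of 10 endothelial genes were called more negative. For Tom, 9 of 10 endothelial genes were called more positive. The part of these genes in the values was not tested.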

How the results depend on the processing

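Of the values of single genes under alternative settings, 845 stayed on their side of the threshold, 48 lost and 25 gained a call, and none of the called values changed sign. Some values that were not called did change sign, such as Erbb3 in Tom HF-SCs (0.26 in the reported fit and -0.19 without mouse 817). Areg, Epgn and Tgfa kept their calls against control in all 12 alternatives of all 4 comparisons. The stricter rule left 3 members called in GFP HF-SCs, 2 in Tom HF-SCs, 1 in GFP b-KCs, 0 in Tom b-KCs, 0 for GFP against Tom in HF-SCs, 2 between controls, 1 for the GFP interaction and 0 for the Tom interaction. For GFP against Tom in HF-SCs, 2 members were called in the reported fit, 1 with a pseudocount of 0.1, 0 without the filter, 0 with only the groups compared, 6 with the random replicate block and 0 with the fixed replicate block. The GFP interaction gave 3 called members without the filter. Leaving out 1 mouse at a time gave 6 to 7 called members in GFP HF-SCs, 4 to 7 in Tom HF-SCs, 4 to 6 in each b-KC fraction, 5 to 6 between controls, 0 to 7 for GFP against Tom in HF-SCs, 0 for the same in b-KCs, 2 to 7 for the GFP interaction and 2 for the Tom interaction. The lowest counts of the GFP interaction came without mouse 810 or 815 (2 each) and without mouse 825 or 828 (3 each). The replicate block moved no other count of calls by over 1.5 times. Beside the calls given with the results, the random block called Ereg in the Tom interaction (adjusted p = 0.046). Leaving out a mouse also lowers the number of libraries. Rescaling the libraries by median ratios (0.946 to 1.08) left every count as it was. The low reads of Btc limit what can be said of it.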

Other observations

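The tested genes whose pattern over the 18 libraries was closest to that of a member were ranked by the root mean square difference of log2(FPKM + 1) after each gene's own mean was subtracted. For Areg they were Trex2, an exonuclease of keratinocytes (0.35), and Pla2g4e (0.37), for Tgfa Vegfa, the vascular growth factor (0.29), and Car9, a carbonic anhydrase (0.38), and for Epgn Slc16a6 (0.26) and Ccna2, which encodes cyclin A2 (0.26). Hbegf was closest to Bhlhe40 (0.25) and Pvrl2 (0.26), and Ereg to Mxd1 and Hrnr (0.39 each). Of the genes that are not ligands, Egfr was closest to Evc2 (0.19) and Kansl1 (0.21), Erbb3 to Plxnb2 and Wwc1 (0.23 each), and Errfi1 to Tjap1 (0.21) and Arsi (0.25). The libraries share mice, and the measure is a description without a test.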
